A study of Mus musculus with 15 samples.

Results

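Kidneys of male C57BL/6 mice that received carbon tetrachloride (CCl4, a liver toxicant) followed by ethanol (EtOH) were compared with kidneys of mice that received olive oil followed by EtOH. The members were 7 of the 15 samples of the series, chosen by their labels: 3 CCl4+EtOH libraries and 4 EtOH libraries. The labels do not say in words that each came from a separate mouse, so p-values measure the spread between these samples. Per the labels, both groups had an intraperitoneal first course of 6 weeks, of CCl4 or of olive oil, and then EtOH for 4 weeks, so that the groups share strain, sex, tissue, ethanol and total time. The titles of the CCl4+EtOH samples name CCl4 a second time, whereas their source names give EtOH only for the last 4 weeks, so CCl4 during the ethanol weeks can be neither assumed nor left out. For age, absolute doses and the route of ethanol, the sources used here give nothing. Replicates are numbered in the order of the samples, and the numbers pair nothing between groups. A further olive oil sample is not analysed here. The other 7 libraries, 3 after olive oil and 4 after CCl4 without ethanol, entered the fit and served to ask whether the CCl4 difference was of the same size without ethanol. Of those 4 CCl4 libraries, 2 came from the first course alone and 2 had a second course of 4 weeks with a reduced dose of CCl4. The olive oil libraries were taken after the first course, so that the groups without ethanol are matched to the ethanol groups in time only in part. The title of the series names acute kidney injury in alcoholic liver fibrosis as its subject.

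The proximal tubule reclaims most of the glomerular filtrate and runs on the oxidation of fatty acids in its mitochondria. After injury, surviving tubule cells lower the genes for transport and metabolism, make surface and secreted proteins that are low in healthy kidney, such as Havcr1 (KIM-1) and Lcn2 (NGAL), and re-enter the cell cycle. Injured tubules also release chemokines and cytokines that draw in monocytes and macrophages, and fibroblasts then deposit matrix. In male mice, the late proximal tubule in addition expresses a set of genes that depend on androgen.

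The 14 libraries held between 16356512 and 23545275 counts. Levels are CPM, read counts relative to the total of the library after TMM scaling, and changes are log2 fold changes with their standard error (SE) from edgeR's quasi-likelihood test, called at a Benjamini-Hochberg adjusted p under 0.05 over 16105 genes. CPM does not correct for gene length, so levels of different genes are not compared. In CCl4+EtOH against EtOH, 5514 genes (34.2%) were called, 2913 higher (18.1%) and 2601 lower (16.2%). The libraries of the groups did not overlap for 17.1% of genes in the higher and 15.3% in the lower direction. Calls over 2-fold numbered 1243 higher (7.72%) and 460 lower (2.86%). The median change was 0.85 among genes called higher and -0.55 among those called lower, against a median near 0 for all genes tested (0.00148). In whole tissue, fewer cells of a type and less RNA per cell cannot be told apart. Kidney markers were present in all 7 libraries: Umod, made by the thick ascending limb, was at 4389.6, 5895, 4542 and 5121 CPM in the EtOH and at 3521, 3855 and 4637 in the CCl4+EtOH libraries, a change of -0.32 ± 0.18 that did not pass (adjusted p = 0.189).

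Adrenal transcripts were treated apart from kidney genes. Star, which carries cholesterol into mitochondria for steroid synthesis, stood at 199, 215, 268 and 6.47 CPM in EtOH replicates 1 to 4 and at 4.45, 5.17 and 5.74 in the CCl4+EtOH libraries. Cyp21a1, the steroid 21-hydroxylase of the adrenal cortex, was at 187, 180.3, 241 and 0 CPM and 0.119, 0.121 and 0.0432. Chga, a granule protein of chromaffin cells, was at 61.1, 24.7, 45.0 and 0 CPM and 0.0795, 0.121 and 0. The first 3 EtOH libraries were thus high, and EtOH replicate 4 was as low as the CCl4+EtOH group. Across all genes, 30 were over 4 times higher in each of EtOH replicates 1 to 3 than in any of the other 11 libraries, after adding 0.1 CPM. The 10 with the highest levels were Star, Hsd3b1, Cyp21a1, Cyp11b1, Akr1b7, Cyp11a1, Chgb, Chga, Scg2 and Akr1cl. Of these 30 genes 29 were tested, and all 29 were among the genes called lower, a direction that the choice of these genes fixes. They are described here apart from kidney genes, but the counts, medians and principal components over all genes tested include them. In a fit without the adrenal and chromaffin list genes, 5496 genes were called. Of 14 adrenal cortex markers 12 were called lower, with a median change of -6.36. When EtOH replicate 4 alone stood for the EtOH group, 11 of the markers could be tested, none passed, and their median was 0.42. Their summed level ran from 41.8 to 1368 CPM in the EtOH libraries and from 26.8 to 47.4 CPM in the CCl4+EtOH libraries.

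Counts of genes called depend on which libraries enter. EtOH replicate 4 lay above all CCl4+EtOH libraries for 2437 of the 2601 genes called lower and not for 164, and it lay below all of them for 2740 of the 2913 genes called higher. These genes were called with EtOH replicate 4 in its group, which favours this outcome, so the counts are no separate check of that library. When EtOH replicate 4 alone stood for the EtOH group, its spread being taken from the other groups, 335 genes passed, and a fit that adds the adrenal cortex marker level as a term called 856. CCl4+EtOH replicate 3 stood between the other CCl4+EtOH libraries and the EtOH group: on the first principal component of the 7 libraries, which held 61.9% of the variance, the CCl4+EtOH replicates were at 75.4, 71.4 and 11.1, and the EtOH libraries between -46.2 and -33.1. Genes called higher had a median deviation of 0.93, 0.88 and 0.40 from the EtOH mean (log2 of CPM + 0.5) in replicates 1, 2 and 3, and genes called lower one of -0.66, -0.70 and -0.27. Without CCl4+EtOH replicate 3 the test called 7417 genes. Beside the groups of genes below stand their counts without this library, and for many of them the counts without another library. Against EtOH replicate 4 alone, few or no members of most groups passed, and this is given for the main groups.

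Of 40 markers of the injured tubule 37 rose, against 18.1% of all genes, and none fell, with a median change of 1.72 (37 of 40 and 2.05 without CCl4+EtOH replicate 3, and a median of 1.79 against EtOH replicate 4 alone, where 3 passed). The number of injury markers called higher was 30 without CCl4+EtOH replicate 1 and 29 without replicate 2. Havcr1, a phosphatidylserine receptor that appears on injured proximal tubule cells, stood at 5.60, 4.25, 3.39 and 5.01 CPM in the EtOH libraries and at 2000.4, 1151 and 108 in the CCl4+EtOH libraries. All CCl4+EtOH libraries were far above the EtOH range, the third much less so. The change was 7.90 ± 0.85 (adjusted p = 0.000131). Spp1, the secreted phosphoprotein osteopontin, stood at 1000.4, 955, 921 and 759 CPM after EtOH and at 34038, 24819 and 4338 after CCl4+EtOH, a change of 4.53 ± 0.50 (adjusted p = 0.000118). Vcam1, an adhesion molecule found on tubule cells that have not completed repair, rose by 4.34 ± 0.43, from 12.1, 26.0, 13.4 and 21.0 to 465, 518 and 119.9 CPM. Krt20, a keratin of injured tubule cells, rose by 6.19 ± 0.72, and Lcn2 by 3.92 ± 0.65. Sox9, a transcription factor of dividing and dedifferentiated tubule cells, was at 1.54, 1.04, 0.932 and 1.39 CPM after EtOH and at 26.9, 34.1 and 7.81 after CCl4+EtOH (change 4.23 ± 0.44). Sox4, of the same family, rose by 1.75 ± 0.22, and the secreted chaperone Clu by 2.45 ± 0.39. Timp1, an inhibitor of matrix proteases, rose by 2.81 ± 0.77 (adjusted p = 0.0141), but CCl4+EtOH replicate 3 at 6.30 CPM lay inside the EtOH range of 2.33 to 11.9. Krt19 (1.52 ± 0.62), Itgb6 (0.28 ± 0.27) and Nrg1 (0.93 ± 0.46) did not pass.

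**Figure D1:**
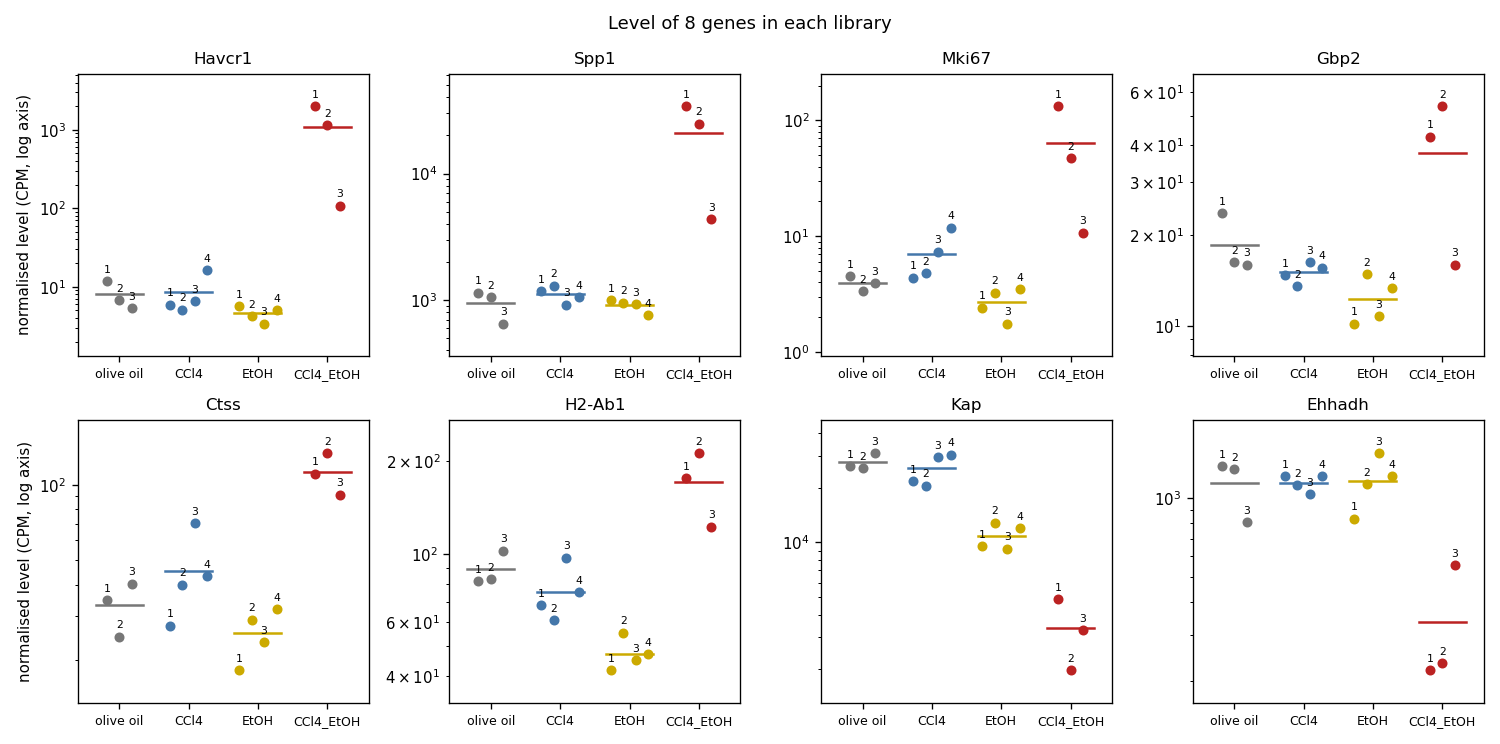
Normalised level (CPM, log axis) of 8 genes in each of the 14 libraries, by group, with the replicate number beside each point and the group mean as a line. In CCl4+EtOH, replicate 3 is near the EtOH group for Gbp2, between the groups for Havcr1, Spp1, Mki67 and Ehhadh, and beside the other replicates for Ctss and Kap.

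The naming rule also picked genes outside the injury list. Mmp7, the secreted protease matrilysin, had no counts in the EtOH libraries and 4.45, 12.2 and 0.864 CPM in the CCl4+EtOH libraries, at least 152-fold higher against 3 counts over the EtOH group. Il1f6, which encodes the cytokine IL-36 alpha, had 1 count over all EtOH libraries and 33.3, 12.6 and 0.993 CPM in the CCl4+EtOH libraries, 1228 times the EtOH level (95% counting interval 220.0 to 48548). Serpina10, the inhibitor of coagulation factor X known as protein Z-dependent inhibitor, rose by 6.42 ± 0.75, from 0.793, 1.73, 1.08 and 1.39 to 182, 128 and 11.3 CPM. Ubd, a ubiquitin-like modifier induced by cytokines, was among the most even of these: 0.149, 0.247, 0.245 and 0.190 CPM after EtOH and 18.0, 17.1 and 6.74 after CCl4+EtOH, a change of 6.02 ± 0.39 (adjusted p = 4.92e-06). Aoc1, the diamine oxidase, rose by 5.31 ± 0.48, and Stra6, the membrane receptor for retinol-binding protein, by 5.23 ± 0.60. Aldh1a2, which makes retinoic acid, rose by 2.78 ± 0.46. Slc34a2, a sodium-phosphate cotransporter of lung and gut epithelium, rose by 3.85 ± 0.62, from 7.68, 9.25, 6.28 and 6.21 to 163, 140.2 and 15.3 CPM. The remaining genes with the 15 largest changes in the higher direction under the naming rule were Ccdc33, Spaca7, Sorcs1, Rbmy, Arhgap36, Kcnh8 and Casc5. The changes of Sorcs1, Rbmy, Arhgap36, Kcnh8 and Casc5 lay between 5.43 and 6.11. Spaca7, with 3 counts over the EtOH group, was 128 times higher (95% counting interval 43.5 to 624). Rbmy has near-identical copies and is uncertain, and Ccdc33, with no counts after EtOH, was at least 47.8-fold higher.

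Genes of DNA replication and mitosis rose in 39 of 41 tested cases and fell in none, with a median of 2.14 (40 of the members tested and 2.55 without CCl4+EtOH replicate 3, and a median of 2.73 against EtOH replicate 4 alone, where none passed). Higher calls numbered 32 without CCl4+EtOH replicate 1 and 38 without replicate 2. Mki67, a protein of proliferating nuclei, was at 2.43, 3.26, 1.77 and 3.49 CPM after EtOH and at 133, 47.6 and 10.8 after CCl4+EtOH, a change of 4.55 ± 0.67 (adjusted p = 0.000568). The ranking of the libraries, with replicate 1 highest and replicate 3 lowest, was shared by Top2a, the topoisomerase of dividing cells (100.2, 38.1 and 8.98 CPM, change 4.79 ± 0.76), and Cdk1, the kinase that starts mitosis (27.5, 11.1 and 3.19 CPM, change 4.41 ± 0.63). Foxm1, a transcription factor of mitotic genes, rose by 3.28 ± 0.51, and the spindle gene Tpx2 by 3.87 ± 0.64. Among genes of DNA replication, Mcm3 and Mcm6, subunits of the replicative helicase, rose by 1.97 ± 0.28 and 1.19 ± 0.16, and Pcna, the sliding clamp, by 0.66 ± 0.15. Ccnd1, the cyclin of early G1, was at 144, 193, 221 and 209 and 225, 188 and 165 CPM, with overlapping groups and a change of 0.01 ± 0.14 that did not pass. Tyms, which makes thymidylate, did not pass either (0.09 ± 0.19). Cdc25c was not tested because of low counts.

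The promoters of 4 of these genes are shown because mitotic genes share short elements near their starts: the cell cycle homology region, TTTGAA, and the CCAAT box. They are the 150 bases before the RefSeq start in build GRCm38.p6, which is not the build of the counts, written 5′ to 3′ along the gene, and capitals mark either element on either strand.
Cdk1 (chr10:69352913-69353062, minus strand): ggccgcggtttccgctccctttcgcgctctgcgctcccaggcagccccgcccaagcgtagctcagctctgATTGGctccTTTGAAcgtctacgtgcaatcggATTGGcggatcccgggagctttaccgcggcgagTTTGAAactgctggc
Ccnb2 (chr9:70421555-70421704, minus strand): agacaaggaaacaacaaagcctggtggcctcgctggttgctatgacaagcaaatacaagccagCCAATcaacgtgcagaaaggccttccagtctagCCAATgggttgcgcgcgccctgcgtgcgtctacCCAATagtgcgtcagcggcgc
Top2a (chr11:99024190-99024339, minus strand): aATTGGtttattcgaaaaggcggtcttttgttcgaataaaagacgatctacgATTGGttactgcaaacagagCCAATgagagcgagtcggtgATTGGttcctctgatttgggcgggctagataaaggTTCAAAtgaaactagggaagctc
Cdc20 (chr4:118437344-118437493, minus strand): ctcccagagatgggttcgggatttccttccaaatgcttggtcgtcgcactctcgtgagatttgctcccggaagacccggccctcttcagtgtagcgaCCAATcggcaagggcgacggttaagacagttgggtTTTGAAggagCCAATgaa
Ccnb2, a mitotic cyclin, rose by 4.07 ± 0.69, and Cdc20, an activator of the ligase that ends mitosis, by 2.98 ± 0.59. The 3 CCAAT boxes of Ccnb2 begin 87, 54 and 21 bases before its start, and the TTTGAA of Cdk1 nearest to its start begins 15 bases before it. No match of one element overlapped a match of the other in these windows. In the 250 bases before the start, CCAAT was found in 28 of 35 promoters (80%) listed for the 33 members with an entry, and TTTGAA in 11 (31.4%). All 11 held both elements. Of all 32851 promoters in the table, 33.8% held CCAAT, 16% TTTGAA and 5.55% both. A match is only a run of letters, and no binding was measured here.

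Immediate early genes are transcribed within minutes of a stimulus, and 16 of 23 rose and none fell, with a median of 1.36 (16 of the members and 1.61 without CCl4+EtOH replicate 3, and 1.75 against EtOH replicate 4 alone). Higher calls numbered 12 without CCl4+EtOH replicate 1 and 14 without replicate 2. Atf3, a stress-induced repressor, rose by 2.65 ± 0.39, from 1.09, 3.36, 1.67 and 2.85 to 17.5, 18.3 and 6.26 CPM, and Klf6 by 1.91 ± 0.29. Jun and Fos, which form the factor AP-1, rose by 1.36 ± 0.28 and 1.46 ± 0.51. For Fos, EtOH replicate 2 at 11.3 CPM reached the level of CCl4+EtOH replicate 3 at 10.9. Of 26 genes of cell death 11 rose and 1 fell, against 18.1% and 16.2% of all genes. The numbers were 15 and 3 without CCl4+EtOH replicate 3, 7 and 1 without either of the others, and none against EtOH replicate 4 alone. Gsdmd, the pore-forming protein of pyroptosis, rose by 1.35 ± 0.21, Casp4, a caspase that cleaves it, by 2.37 ± 0.39, and Mlkl, the effector of necroptosis, by 1.33 ± 0.27. Gpx4, which protects membranes from lipid peroxides, was the gene that fell (-0.60 ± 0.09). Of 25 targets of p53 and brakes of the cell cycle 7 rose (28%, against 18.1% of all genes) and none fell, with a median of 0.24. Without CCl4+EtOH replicate 3, 10 rose and 3 fell.

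Macrophage markers rose in 19 of 25 cases and fell in none, with a median of 1.64 (19 of the members and 1.77 without CCl4+EtOH replicate 3, and 1.19 against EtOH replicate 4 alone, where none passed). The number of macrophage markers called higher was 19 without CCl4+EtOH replicate 1 and 14 without replicate 2. Ccr2, the chemokine receptor of inflammatory monocytes, was at 6.30, 9.35, 5.89 and 10.02 CPM after EtOH and at 52.3, 69.2 and 26.3 after CCl4+EtOH, a change of 2.65 ± 0.36 (adjusted p = 0.000392). Emr1, which encodes the macrophage antigen F4/80, was at 6.99, 13.1, 9.91 and 14.5 CPM and 39.7, 47.4 and 41.1, a change of 1.95 ± 0.35. Here the third replicate was within the range of the other replicates. Cx3cr1, the fractalkine receptor, rose by 2.71 ± 0.40, and C1qa, C1qb and C1qc, the chains of complement C1q, by 1.91 ± 0.27, 2.11 ± 0.29 and 2.05 ± 0.28. Markers linked to other macrophage states did not pass: Arg1 (-1.20 ± 0.63), Cd163 (0.67 ± 0.34) and Gpnmb (0.80 ± 0.81). Gpnmb was at 8.42, 10.8 and 48.7 CPM in the CCl4+EtOH libraries, so that only the third was above the EtOH range of 3.77 to 19.9. Dendritic cell markers rose in 5 of 10 cases (3 without CCl4+EtOH replicate 1 or without EtOH replicate 1 or 3), those of T and NK cells in 5 of 15 (1 of 16 without CCl4+EtOH replicate 1) and those of B and plasma cells in 1 of 8, with none lower.

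Genes of MHC class II, which present peptides to helper T cells, rose in 8 of 10 cases with a median of 1.87 (8 of 11 tested and 2.04 without CCl4+EtOH replicate 3). Against EtOH replicate 4 alone 7 passed, with a median of 1.90. When the adrenal marker level was added as a term to the fit, 8 of 10 MHC class II genes passed. In the same fit, the members passing in the direction of the main call were 6 of 40 for the injured tubule, 3 of 41 for replication and mitosis, 8 of 25 for macrophages, 3 of 35 for interferon-stimulated genes, 10 of 38 for NF-kB and Toll-like receptor signalling and 5 of 32 for collagens and matrix. For the groups that fell they were 7 of 12 for the late proximal tubule, 10 of 50 for fatty acid oxidation, 15 of 41 for amino acid breakdown and 3 of 48 for the respiratory chain. In the same order, the median changes in that fit were 1.79, 2.33, 1.53, 1.11, 1.13 and 1.04, and -1.21, -0.71, -0.88 and -0.45. H2-Ab1, a beta chain, was at 41.8, 55.4, 45.2 and 47.1 CPM after EtOH and at 177, 213 and 123 after CCl4+EtOH, a change of 1.85 ± 0.18 (adjusted p = 9.99e-05). The olive oil mean lay between, at 89.0 ± 11.7 CPM (SD, n = 3). Over the MHC class II list, the median difference of EtOH from olive oil was -0.70. The mean level of the list (log2 of CPM + 0.5) was 4.05, 4.07 and 4.25 after olive oil and 5.17, 5.28 and 4.54 after CCl4+EtOH. The invariant chain Cd74 rose by 2.15 ± 0.21, the alpha chain H2-Aa by 2.14 ± 0.24 and the beta chain H2-Eb1 by 2.10 ± 0.21. Ciita, the coactivator that MHC class II genes require, was at 4.41, 3.86, 4.71 and 4.63 CPM and 20.1, 17.6 and 11.3, a change of 1.89 ± 0.20. H2-DMa and H2-DMb1, which load peptides, rose by 1.70 ± 0.22 and 1.42 ± 0.19, whereas H2-Oa (0.38 ± 0.71) and H2-Ob (0.72 ± 0.32), which inhibit loading, did not pass. MHC genes are polymorphic paralogs, so reads may be shared among them. Genes of MHC class I and antigen processing rose in 15 of 21 cases and fell in 1, with a median of 0.67 (17 and 0 without CCl4+EtOH replicate 3, and 1 against EtOH replicate 4 alone).

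The promoters of H2-Aa and H2-Eb1, printed in the same way with CCAAT in capitals, are shown because promoters of MHC class II genes are known for a Y box, an element that contains these letters.
H2-Aa (chr17:34287824-34287973, minus strand): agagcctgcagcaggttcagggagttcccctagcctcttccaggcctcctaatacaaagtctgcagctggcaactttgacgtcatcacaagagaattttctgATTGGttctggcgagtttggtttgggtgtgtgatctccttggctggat
H2-Eb1 (chr17:34305717-34305866, plus strand): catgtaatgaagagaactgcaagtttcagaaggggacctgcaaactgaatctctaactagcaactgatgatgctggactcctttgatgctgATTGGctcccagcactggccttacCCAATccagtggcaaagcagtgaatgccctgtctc
Both hold the element on the opposite strand, as ATTGG, beginning 48 bases before the start in H2-Aa and 59 in H2-Eb1, and H2-Eb1 holds a further CCAAT 35 bases before its start. CCAAT on either strand was found in 7 of 8 promoters listed for the 7 members with an entry, against 33.8% of all promoters.

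Of 35 interferon-stimulated genes 28 rose and none fell, with a median of 1.004 (31 and 1.30 without CCl4+EtOH replicate 3, 15 without replicate 2, and 1.11 against EtOH replicate 4 alone, where none passed). The third CCl4+EtOH library lay inside the EtOH range for 23 of the 35 members, and for 4 of the 25 macrophage markers. Gbp2, an interferon-induced GTPase, was at 10.2, 14.8, 10.7 and 13.3 CPM after EtOH and at 42.6, 53.8 and 15.97 after CCl4+EtOH, a change of 1.61 ± 0.30. Parp14 rose by 1.52 ± 0.22, the RNA sensors Ifih1 and Ddx58 by 0.83 ± 0.14 and 0.94 ± 0.16, and the transcription factor Irf1 by 1.11 ± 0.19. Cxcl10, a chemokine for T cells, rose by 2.32 ± 0.54, while Cxcl9 (0.54 ± 0.37) and Rsad2 (-0.20 ± 0.10) did not pass.

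Genes of NF-kB and Toll-like receptor signalling rose in 28 of 38 cases and fell in 3, with a median of 1.02 (29 and 3 without CCl4+EtOH replicate 3, with a median of 1.16, and 1.11 against EtOH replicate 4 alone, where 3 passed). The numbers higher and lower were 23 and 1 without CCl4+EtOH replicate 1, and 21 and 1 without replicate 2. Among receptors, Tlr2, which senses bacterial lipoproteins, was at 2.83, 5.44, 2.99 and 3.11 CPM and 29.0, 32.3 and 13.5, a change of 2.79 ± 0.35. Tlr8 was at 0.545, 0.791, 0.736 and 0.888 CPM and 3.93, 4.64 and 4.75, a change of 2.58 ± 0.27, with the third replicate as high as the others. Tlr4, the receptor for bacterial endotoxin, rose by 1.03 ± 0.19 and its partner Cd14 by 2.75 ± 0.41. Of the subunits, Nfkb1 rose by 0.95 ± 0.14, Nfkb2 by 1.36 ± 0.16, Relb by 1.95 ± 0.32 and Rela by 0.49 ± 0.13. The inhibitors and feedback genes Nfkbie, Tnfaip3 and Nfkbiz rose by 1.87 ± 0.25, 1.79 ± 0.29 and 2.29 ± 0.29. The 3 members that fell were Chuk, a kinase of the complex that releases NF-kB (-0.60 ± 0.14), Irak1 (-0.27 ± 0.09) and Irak2 (-0.30 ± 0.11).

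Cytokines and receptors of the TNF, IL-1 and IL-6 families rose in 18 of 32 cases and fell in none (22 without CCl4+EtOH replicate 3, and 12 without replicate 1), with a median of 0.91. Lif, a cytokine that signals through gp130, was at 0.545, 0.940, 1.18 and 1.14 CPM and 50.1, 21.1 and 3.97, a change of 4.72 ± 0.62. Osmr, the oncostatin M receptor, rose by 1.87 ± 0.37, and Socs3 and Stat3, which act below these receptors, by 2.72 ± 0.45 and 0.84 ± 0.16. Il1b rose by 1.51 ± 0.49 (adjusted p = 0.0301), from 1.19, 4.20, 1.23 and 4.06 to 9.73, 8.51 and 4.40 CPM, while Tnf was at 0.595, 0.841, 0.294 and 0.761 and 1.59, 2.18 and 0.475 CPM, a change of 1.19 ± 0.52 that did not pass (adjusted p = 0.0915). Of 33 chemokines and receptors 11 rose and 2 fell (15 of 36 and 2 without CCl4+EtOH replicate 3, and 1 against EtOH replicate 4 alone). Without either CCl4+EtOH replicate 1 or replicate 2, 8 chemokines and receptors rose and 1 fell. Cxcl1 and Cxcl2, which attract neutrophils, rose by 4.44 ± 0.68 and 3.51 ± 0.81, Ccl2, the ligand of Ccr2, by 2.35 ± 0.71, and Cxcl16 by 1.48 ± 0.17. Cxcl12, a chemokine of stroma and endothelium, fell (-0.92 ± 0.19). Complement and coagulation had 21 of 35 members higher and 2 lower, with a median of 0.96 (21 and 3 without CCl4+EtOH replicate 3, and 1 against EtOH replicate 4 alone). C3, the central complement protein, was at 336, 529.8, 475 and 406 CPM and 2637, 3635 and 1402, a change of 2.55 ± 0.36. In the acute phase list, 9 of 23 genes rose and none fell (11 without CCl4+EtOH replicate 3, 6 without replicate 2, and none against EtOH replicate 4 alone). Fga, Fgb and Fgg, the fibrinogen chains, rose by 2.08 ± 0.60, 2.50 ± 0.57 and 2.63 ± 0.65, but CCl4+EtOH replicate 3 was at 40.4, 9.37 and 33.0 CPM, within or below the EtOH ranges of 46.1 to 104, 6.39 to 13.8 and 25.2 to 89.0.

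Of 32 collagens and other matrix genes 22 rose and 1 fell, with a median of 0.998 (24 and 1 with a median of 1.11 without CCl4+EtOH replicate 3, 14 and 1 without replicate 1, and 0.99 against EtOH replicate 4 alone, where none passed). Col15a1, a basement membrane collagen, was at 27.2, 34.1, 26.0 and 29.3 CPM and 170.5, 126 and 72.4, a change of 2.08 ± 0.25. Col4a1 and Col4a2, the common chains of basement membrane collagen IV, rose by 1.23 ± 0.18 and 0.999 ± 0.15, whereas Col4a3, a chain of the mature glomerular membrane, fell (-0.54 ± 0.13). Col1a1, a chain of the collagen of scars, rose from 42.3, 104, 72.3 and 91.4 to 337, 161 and 121 CPM, a change of 1.41 ± 0.46 (adjusted p = 0.0327). Tnc, a matrix protein of repairing tissue, rose by 2.36 ± 0.49. Fibroblast and pericyte markers rose in 8 of 15 cases with a median of 0.81 (9, with 1 lower, without CCl4+EtOH replicate 3, 4 without replicate 1, and none against EtOH replicate 4 alone), but Acta2, the smooth muscle actin of myofibroblasts, was at 61.4, 40.1, 42.3 and 37.2 and 108, 50.4 and 47.6 CPM and did not pass (0.60 ± 0.31). Of 29 matrix proteases and inhibitors 18 rose and 3 fell (17 of 30 and 3 without CCl4+EtOH replicate 3). Mmp14, a membrane-bound protease, rose by 1.80 ± 0.21 and Adamts1 by 2.71 ± 0.35, while the brush border proteases Mep1a and Mep1b fell (-0.90 ± 0.16 and -1.57 ± 0.33). Of 38 ligands and receptors of the TGF-beta, PDGF and EGF families 18 rose and 5 fell (23 of 41 and 6 without CCl4+EtOH replicate 3). The numbers were 13 and 4 without replicate 1, and 13 and 3 without replicate 2. Tgfb1 rose by 1.31 ± 0.18, its receptors Tgfbr1 and Tgfbr2 by 0.67 ± 0.11 and 0.90 ± 0.15, and Pdgfb by 1.52 ± 0.20. Egf, made by the thick ascending limb and distal tubule, was at 2233, 2494, 2172 and 2742 CPM and 306, 415 and 1706, a change of -1.58 ± 0.44, with the third library near the EtOH range of 2172 to 2742. Bmp7, an epithelial growth factor of the kidney, fell (-0.84 ± 0.19).

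**Figure D2:**
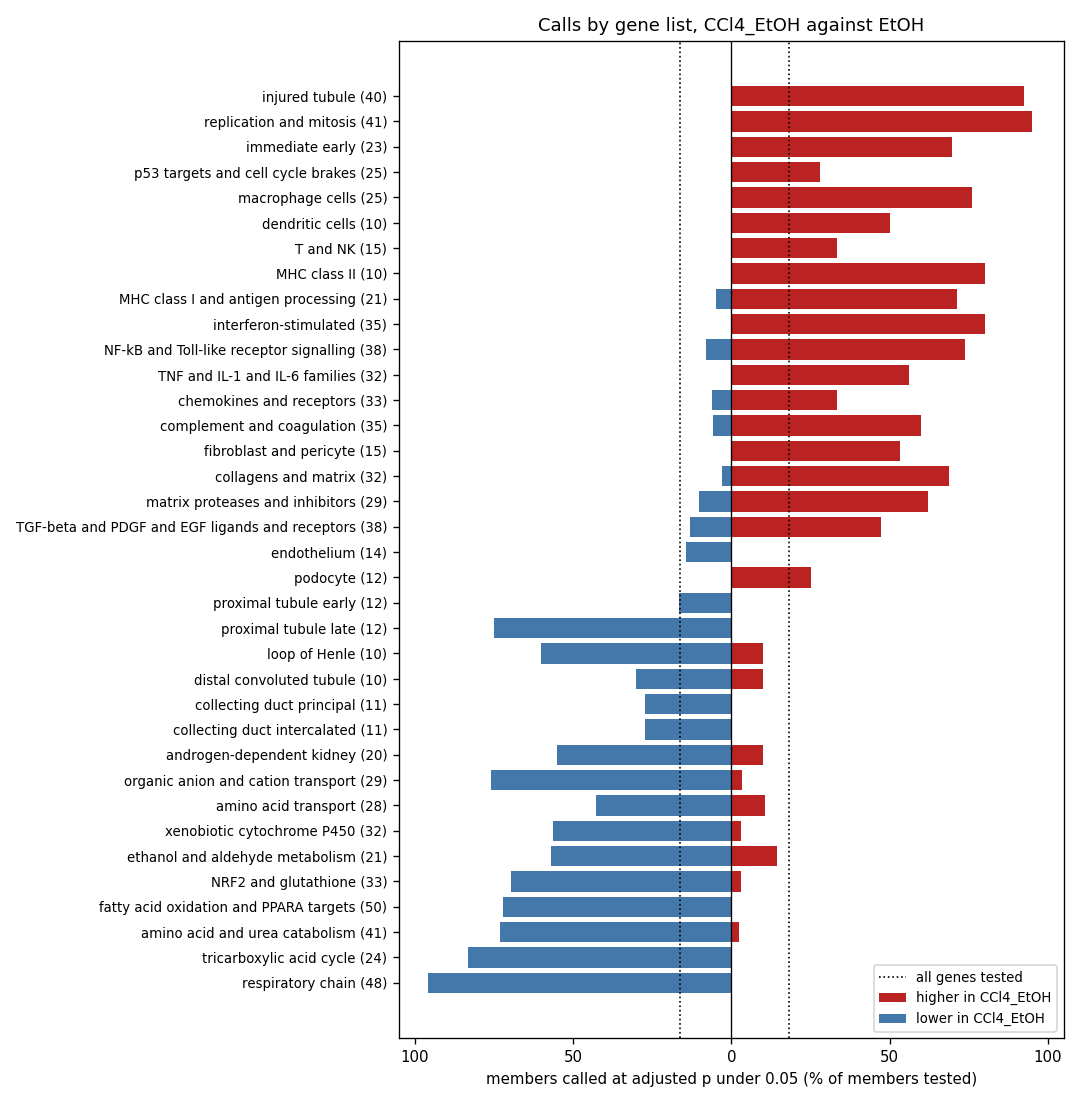
Share of the members of 36 gene lists called higher (right) or lower (left) in CCl4+EtOH against EtOH, in percent of the members tested, whose number stands in brackets. Dotted lines mark the shares over all genes, 18.1% and 16.2%. Injury, replication, immune and matrix lists lie on the right and metabolic and transport lists on the left.

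Markers of the late and the early proximal tubule differed in where the third CCl4+EtOH library lay. Of 12 markers of the late proximal tubule 9 fell, with a median of -1.21 (9 and -1.35 without CCl4+EtOH replicate 3, and -1.20 against EtOH replicate 4 alone, where 3 passed). Of 12 markers of the early proximal tubule 2 fell, near the share of all genes (16.2%), with a median of -0.58. Without CCl4+EtOH replicate 3 the test called 10 of them lower, with a median of -1.34. Without any other single library of the groups compared it called 1. Slc34a1, the main phosphate transporter of the early tubule, was at 6969, 5768, 5032 and 5995 CPM after EtOH and at 1544, 1916 and 5747 after CCl4+EtOH, a change of -0.95 ± 0.35 (adjusted p = 0.0481). The first and second libraries were low and the third was inside the EtOH range. Slc5a2, the glucose transporter SGLT2, showed the same order at 211, 259 and 774 CPM against 668, 555, 605 and 683 with the third above the EtOH range, and did not pass (-0.60 ± 0.34). In the late tubule, Slc22a19, an organic anion transporter, was instead at 45.1, 21.3 and 22.8 CPM against 78.3, 131, 92.5 and 103, with the third replicate as low as the second, a change of -1.77 ± 0.25. Slc16a9 changed by -1.15 ± 0.15 and the water channel Aqp1 by -0.999 ± 0.16.

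Beyond the proximal tubule the lists were short, and their counts stand against 16.2% of all genes lower and 18.1% higher. Of 10 markers of the loop of Henle 6 fell and 1 rose (7 and 1 without CCl4+EtOH replicate 3, and 3 and 0 without replicate 2). Slc12a1, the salt cotransporter blocked by loop diuretics, changed by -0.84 ± 0.20, and Kcnj1, its partner potassium channel, by -0.74 ± 0.16. Of 10 markers of the distal convoluted tubule 3 fell (30%) and 1 rose (10%). The numbers were 7 and 1 without CCl4+EtOH replicate 3, and 0 and 1 without either of the other CCl4+EtOH libraries. They were 1 and 1 when any 1 EtOH library was left out. The calcium channel Trpv5 was the one that rose (1.19 ± 0.20). Principal cells and intercalated cells of the collecting duct had 3 of 11 markers lower each (27.3%). The numbers were 5 and 9 of 11 without CCl4+EtOH replicate 3, and none without replicate 2. Leaving out CCl4+EtOH replicate 1 gave 2 and 1, and leaving out EtOH replicate 1 or 3 also gave 2 and 1. The water channel Aqp3 changed by -0.77 ± 0.22, and Slc4a1, the bicarbonate exchanger of acid-secreting cells, by -1.10 ± 0.30. Of 14 endothelial markers 2 fell, with a median of -0.17, which is near the share of all genes (16.2%). Without CCl4+EtOH replicate 3 the number was 4, and without replicate 1 none. Of 12 podocyte markers 3 rose (25%, against 18.1% of all genes), with a median of 0.03. Without CCl4+EtOH replicate 3 the test called 2 higher and 3 lower, with a median of -0.11, and without replicate 2 it called 1 higher. Among 24 transcription factors of the nephron 6 fell (25%, against 16.2% of all genes) and 1 rose, with a median of -0.24. The numbers were 14 and 1, with a median of -0.43, without CCl4+EtOH replicate 3. They were none without replicate 1, without replicate 2 or against EtOH replicate 4 alone. The lower calls numbered 2 to 6 when any one EtOH library was left out. Hnf4a, which drives proximal tubule genes, changed by -0.60 ± 0.16, and Pax8, a factor of nephron development, rose by 0.44 ± 0.13.

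Among 29 organic anion and cation transporters 22 fell and 1 rose, with a median of -1.03 (22 and -1.31 without CCl4+EtOH replicate 3, 13 without replicate 2, and -0.96 against EtOH replicate 4 alone, where 1 passed). Slc22a12, the urate transporter URAT1, was at 1961, 2259.9, 2289.7 and 2331 CPM and 635, 480.3 and 1327, a change of -1.44 ± 0.26. Slc22a6 and Slc22a8, the anion transporters OAT1 and OAT3, changed by -1.24 ± 0.31 and -1.64 ± 0.48, and Slc22a2, the cation transporter OCT2, by -0.99 ± 0.21. The drug exporter Abcb1b is a call to read with the adrenal values, since it was at 54.8, 50.1, 87.9 and 12.2 CPM in the EtOH libraries and 8.74, 12.55 and 18.1 in the CCl4+EtOH libraries: the fourth EtOH library, with few adrenal transcripts, lay at the CCl4+EtOH level. Amino acid transporters fell in 12 of 28 cases and rose in 3 (17 and 4 without CCl4+EtOH replicate 3, and none against EtOH replicate 4 alone).

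Genes that depend on androgen in the male mouse kidney fell in 11 of 20 cases and rose in 2, with a median of -0.96 (9 and 1 with a median of -0.91 without CCl4+EtOH replicate 3, 7 and 1 without replicate 2, and -1.18 against EtOH replicate 4 alone, where 3 passed). In this group the third library was as low as the others: its mean distance from the EtOH level was 113% of that of replicates 1 and 2. Kap, the kidney androgen-regulated protein, was at 9515, 12842, 9217 and 11985 CPM after EtOH and at 4873, 1969 and 3269.7 after CCl4+EtOH, a change of -1.69 ± 0.28 (adjusted p = 0.000841). Cyp7b1, an oxysterol hydroxylase, was at 60.3, 114, 65.6 and 106 CPM and 29.6, 12.55 and 8.98, a change of -2.34 ± 0.40. Slco1a1, an organic anion transporter, was at 124, 182, 112 and 229 CPM and 71.5, 16.9 and 9.84, a change of -2.30 ± 0.77. The olive oil means for these genes (mean ± SD, n = 3) were 27613 ± 2981, 294 ± 97.1 and 535 ± 493 CPM. Odc1, which starts polyamine synthesis, did not pass (-1.03 ± 0.45). Timd2 and Gusb rose, by 1.12 ± 0.27 and 0.44 ± 0.16.

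Outside the adrenal, chromaffin and adipocyte genes, which the naming rule leaves out, the largest falls were led by Dnase1, a secreted DNA-cutting enzyme, at 1011, 796, 709.9 and 1104 CPM after EtOH and 59.3, 52.6 and 112 after CCl4+EtOH, a change of -3.60 ± 0.38 (adjusted p = 0.000113). Azgp1, a secreted lipid-mobilising glycoprotein, was at 54.9, 60.2, 50.3 and 54.8 CPM and 6.00, 7.06 and 8.59, a change of -2.93 ± 0.19 with all replicates close together (adjusted p = 4.92e-06). Other large falls were those of 5 cytochromes of the Cyp2d family, Cyp2d9, Cyp2d10, Cyp2d11, Cyp2d12 and Cyp2d13, with changes between -3.25 and -2.62. Col19a1, Cyp4a12a, Slc6a12, Dpys and Kcnt1 completed the 15 with Hpd, Cyp4a14 and Cyp7b1 named elsewhere, with changes of -2.89, -2.55, -2.53, -2.46 and -2.35. The Cyp2d genes are close paralogs, and how reads were split between them is not stated in these sources. Of 32 cytochromes P450 and their partners 18 fell and 1 rose, with a median of -0.84 (22 and 3 with a median of -1.22 without CCl4+EtOH replicate 3, and -1.16 against EtOH replicate 4 alone, where 8 passed). Without either CCl4+EtOH replicate 1 or replicate 2, 15 of 33 tested fell and none rose. Cyp2e1, which oxidises ethanol and activates CCl4, was at 1165, 1240.3, 1176 and 1621 CPM and 382, 569 and 299, a change of -1.64 ± 0.25 (adjusted p = 0.000529), with the lowest value in the third replicate. Cyp4b1 changed by -1.60 ± 0.27 and Cyp2a4 by -1.75 ± 0.26.

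Genes of fatty acid oxidation and targets of PPARA fell in 36 of 50 cases and rose in none, with a median of -0.79 (44 and -1.05 without CCl4+EtOH replicate 3, and -0.74 against EtOH replicate 4 alone, where 5 passed). Lower calls numbered 27 without CCl4+EtOH replicate 1 and 26 without replicate 2. Ehhadh, a peroxisomal enzyme of beta-oxidation, was at 835, 1127, 1485 and 1215 CPM and 219.7, 235 and 555, a change of -1.79 ± 0.31. Acot12, which hydrolyses acetyl-CoA, changed by -1.36 ± 0.15, Acadm, the medium-chain dehydrogenase of mitochondria, by -1.17 ± 0.19, and Cpt1a, which admits fatty acids to mitochondria, by -0.55 ± 0.17. Ppara itself changed by -0.88 ± 0.31 (adjusted p = 0.0453), the third replicate at 187 CPM lying inside the EtOH range of 168 to 253. Cyp4a14, which PPARA induces, was at 238 ± 181 CPM after olive oil, at 1721, 2185, 3028 and 1785 in the EtOH libraries and at 109, 244 and 910.4 in the CCl4+EtOH libraries (change -2.37 ± 0.86, adjusted p = 0.0491). Angptl4, a PPAR target that inhibits lipoprotein lipase, did not pass (-0.10 ± 0.36).

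Nearly all genes of the respiratory chain fell, by small amounts. Its subunits were lower in 46 of 48 cases, with a median of -0.47 (47 and -0.66 without CCl4+EtOH replicate 3, 23 and 26 without replicates 1 and 2, and -0.50 against EtOH replicate 4 alone, where 1 passed). Ndufv1, of complex I, was at 328, 355, 344 and 340.3 CPM and 194, 208 and 268, a change of -0.61 ± 0.10, and Atp5a1, of the ATP synthase, changed by -0.57 ± 0.15. Genes of the tricarboxylic acid cycle fell in 20 of 24 cases with a median of -0.55 (23 without CCl4+EtOH replicate 3, and 10 and 11 without replicates 1 and 2), among them Pdha1, of pyruvate dehydrogenase (-0.57 ± 0.12), and Ogdh, of oxoglutarate dehydrogenase (-0.61 ± 0.17). Genes that break down amino acids fell in 30 of 41 cases and rose in 1, with a median of -0.89 (36 and 1 with a median of -1.29 without CCl4+EtOH replicate 3). Without either CCl4+EtOH replicate 1 or replicate 2, 25 of them fell and none rose. Cbs, which starts the conversion of homocysteine to cysteine, was at 192, 225, 171 and 199.6 CPM and 92.5, 68.2 and 74.1, a change of -1.33 ± 0.12 (adjusted p = 4.22e-05). Dmgdh, which oxidises dimethylglycine, changed by -2.14 ± 0.20, and Hpd, of tyrosine breakdown, by -2.996 ± 0.52. The member that rose was the mitochondrial arginase Arg2 (1.21 ± 0.34). Of 29 glycolysis and gluconeogenesis genes 5 rose, near the share of all genes (18.1%), and 8 fell. Without CCl4+EtOH replicate 3 the numbers were 7 and 13, without replicate 1 they were 2 and 5, without replicate 2 they were 3 and 3, and against EtOH replicate 4 alone none passed. The hexokinase Hk2 rose by 2.34 ± 0.63, and the gluconeogenic Fbp1 changed by -0.71 ± 0.19.

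Genes of ethanol and aldehyde metabolism fell in 12 of 21 cases and rose in 3, with a median of -0.68 (12 and 4 without CCl4+EtOH replicate 3, and a median of -0.86 against EtOH replicate 4 alone, where 3 passed). Aldh2, the main mitochondrial acetaldehyde dehydrogenase, was at 818, 860.2, 832 and 839 CPM after EtOH and at 309.5, 309 and 540.2 after CCl4+EtOH, a change of -1.12 ± 0.17. Cat, the peroxisomal catalase, changed by -1.09 ± 0.21, and Acss2, which makes acetyl-CoA from acetate, by -1.03 ± 0.20. Adh1, the classical alcohol dehydrogenase, was at 415, 440.5, 531 and 624 and 484, 313 and 202 CPM and did not pass (-0.59 ± 0.31). Genes of glutathione and of the NRF2 response fell in 23 of 33 cases and rose in 1, with a median of -0.57 (24 and 2 without CCl4+EtOH replicate 3, and 3 and 0 against EtOH replicate 4 alone). Lower calls numbered 20 without CCl4+EtOH replicate 1 and 17 without replicate 2. Nqo1, a quinone reductase, changed by -1.11 ± 0.23, Gsta3, a glutathione transferase, by -1.24 ± 0.18, and Sod1, the cytosolic superoxide dismutase, by -0.84 ± 0.13. Slc7a11, the cystine importer, was the member that rose (1.11 ± 0.20). Hmox1, the inducible heme oxygenase, was at 21.6, 52.7, 46.0 and 48.1 and 48.6, 53.2 and 31.3 CPM, with overlapping groups and a change of 0.08 ± 0.26 (adjusted p = 0.843).

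Of 20 vitamin D and phosphate genes 4 rose, near the share of all genes (18.1%), and 6 fell. Without CCl4+EtOH replicate 3 the numbers were 4 and 13, without replicate 1 they were 3 and 2, without replicate 2 they were 3 and 0, and against EtOH replicate 4 alone none passed. Cyp27b1, which makes active vitamin D, was at 0.644, 3.07, 0.687 and 1.46 CPM after EtOH and at 12.2, 49.4 and 5.61 after CCl4+EtOH, a change of 3.93 ± 0.77, against 16.9 ± 11.3 CPM after olive oil. Gc, the vitamin D-binding protein, was at 182, 151, 148 and 112 and 579.8, 587 and 293 CPM, a change of 1.71 ± 0.26, and at 34.5 ± 4.80 after olive oil. Vdr, the receptor, changed by -0.71 ± 0.22, and S100g, a calcium-binding protein that vitamin D induces, by -1.21 ± 0.31. Kl, the coreceptor for FGF23, did not pass (-0.81 ± 0.32). Of 30 genes of cholesterol synthesis and uptake 8 fell and 3 rose, against 16.2% and 18.1% of all genes. The numbers were 14 and 3 without CCl4+EtOH replicate 3, 2 and 2 without either of the others, 4 lower without EtOH replicate 1 or 3, and none against EtOH replicate 4 alone. Abca1, a cholesterol exporter, rose by 1.28 ± 0.29.

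**Figure D3:**
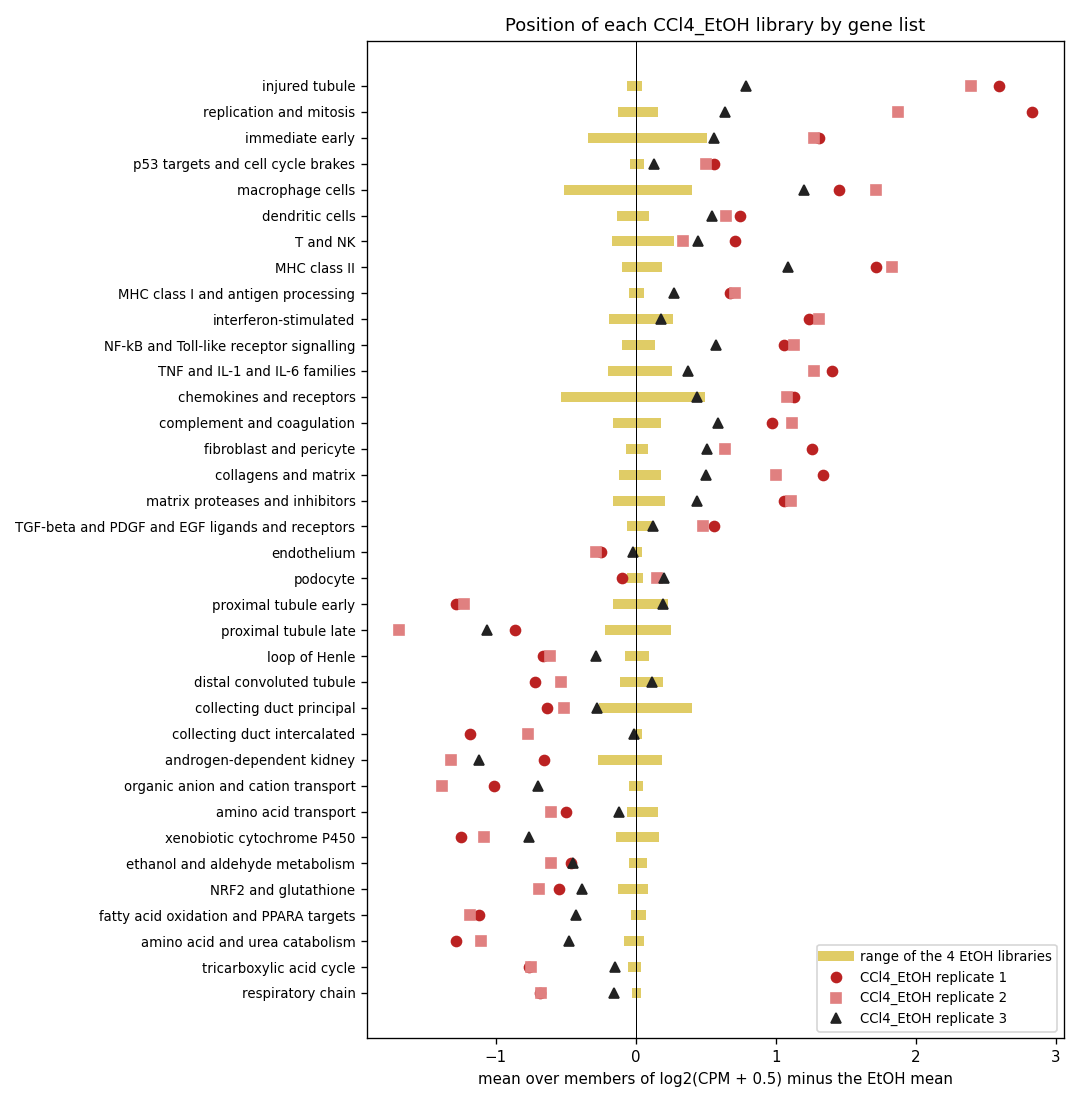
Mean over the members tested of each list of log2(CPM + 0.5) minus the EtOH mean, for the 3 CCl4+EtOH libraries, with the range of the 4 EtOH libraries as a bar. The third library is near or inside the EtOH bar for interferon-stimulated, early proximal tubule, distal tubule and intercalated cell genes, and beside the other libraries for macrophage, late proximal tubule and androgen-dependent genes.

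How far the third CCl4+EtOH library lay from the EtOH level is given for the main groups of genes. As a share of the mean distance of replicates 1 and 2 from the EtOH level, it had gone 113% for androgen-dependent genes, 83.5% for late proximal tubule markers, 83.3% for ethanol and aldehyde metabolism, 75.8% for macrophage markers and 61.3% for MHC class II. The share was 37.1% for fatty acid oxidation, 31.6% for injury markers, 27.2% for replication and mitosis, 22.8% for the respiratory chain and 14.1% for interferon-stimulated genes. For early proximal tubule markers it was -15.5%, on the other side of the EtOH level. These shares describe 1 library and carry no test. They are not independent, since some lists share members. Kap and Cyp7b1 are in both the androgen and the late proximal tubule lists, and Cyp2e1 is in both the androgen and the ethanol lists.

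The design also asks whether the CCl4 difference was the same without ethanol. The interaction, (CCl4+EtOH minus EtOH) minus (CCl4 minus olive oil), was called for 1468 genes (9.12%), 884 positive (5.49%) and 584 negative (3.63%). It shares the EtOH and CCl4+EtOH libraries with the main comparison, and neither the olive oil libraries nor 2 of the 4 CCl4 libraries are matched to it in time. Injury markers had a median change of 1.72 in the ethanol groups and of -0.02 without ethanol, and 23 of 40 had a positive interaction. Havcr1 was at 7.97 ± 3.43 CPM after olive oil (SD, n = 3) and 8.46 ± 5.26 after CCl4 (SD, n = 4), and its interaction was 7.82 ± 1.07 (adjusted p = 0.00516). Among MHC class II genes 8 of 10 had a positive interaction, for Cd74 2.36 ± 0.29 (adjusted p = 0.00224). In the macrophage list the number was 10 of 25, and in the replication list 16 of 41. Negative interactions were found for 21 of 41 genes of amino acid breakdown, 25 of 50 of fatty acid oxidation and 4 of 20 that depend on androgen, for Kap -1.58 ± 0.39 (adjusted p = 0.0259). For Hk2, Fos and Cxcl5 the difference without ethanol was estimated at 1.69, 1.505 and 2.51, and no call is given for it here. Their interactions did not pass (adjusted p = 0.69, 0.975 and 0.962), which does not show that the differences were equal. These 3 genes were singled out after their values were seen. Without CCl4+EtOH replicate 3 the interaction was called for 4881 genes, and with the adrenal marker level added as a term for 3.

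**Figure D4:**
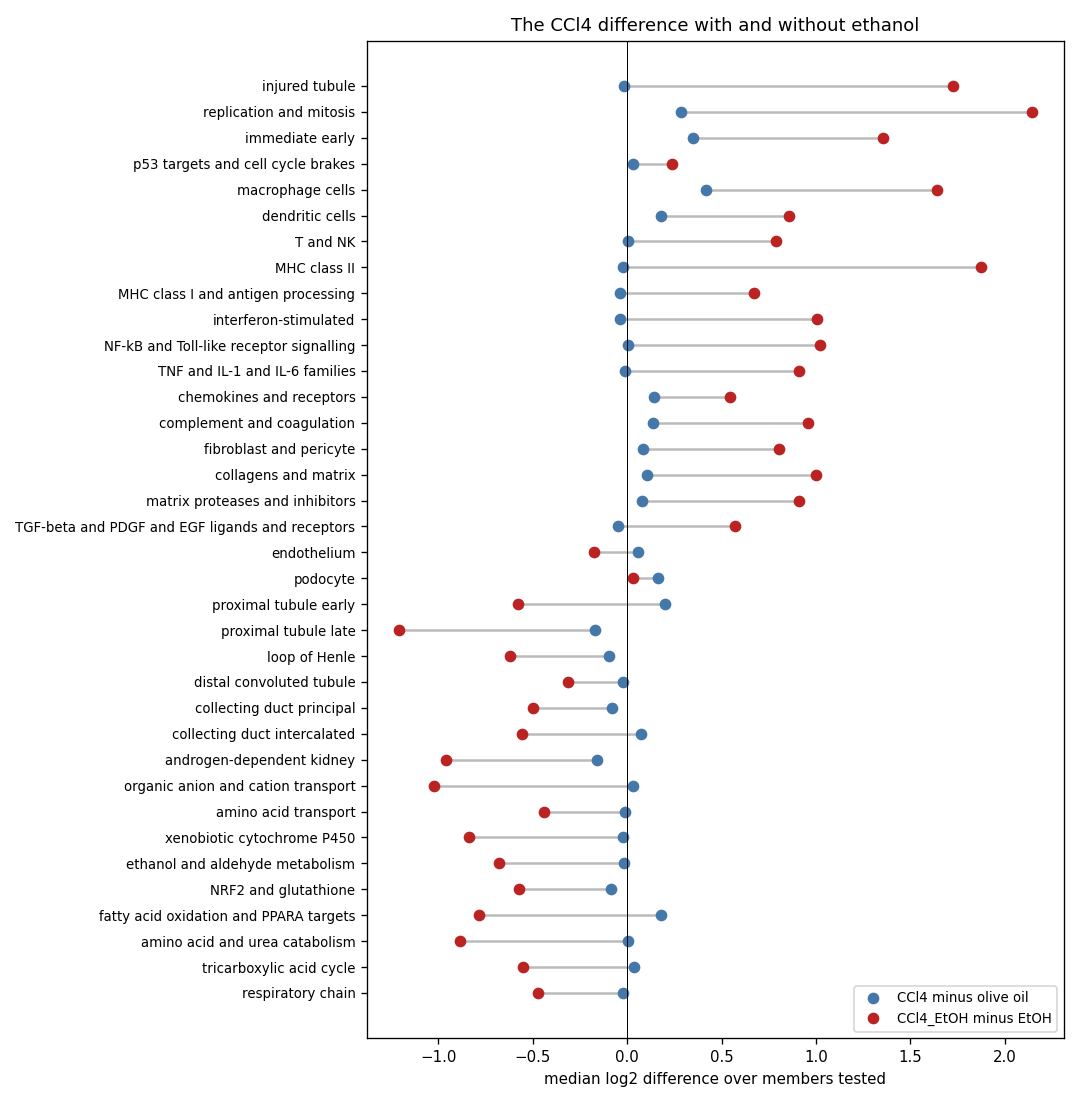
Median log2 difference over the members tested of 36 lists, for CCl4 minus olive oil (blue) and CCl4+EtOH minus EtOH (red). The blue points lie between -0.17 and 0.42, and the red points spread from the replication, MHC class II and injured tubule lists on the right to the late proximal tubule and transporter lists on the left.

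Markers of cells from outside the nephron moved with single libraries. Of 10 neutrophil markers none passed, with a median of -1.52 (0.05 over 9 markers without EtOH replicate 4), and EtOH replicate 4 was high: the mean level over the list (log2 of CPM + 0.5) was 0.32, 1.57, 0.68 and 3.80 in EtOH replicates 1 to 4 and 0.80, 0.99 and 1.32 in the CCl4+EtOH libraries. The summed level of the list ran from 10.9 to 239 CPM in the EtOH libraries and from 20.3 to 28.0 CPM in the CCl4+EtOH libraries. Among 14 adipocyte markers 1 was called, the gluconeogenic enzyme Pck1 (-1.62 ± 0.40), which the proximal tubule also expresses. The median over the list was -0.49. Without CCl4+EtOH replicate 3 the test called 6 of 14 lower, with a median of -1.86, and without EtOH replicate 1 the median was 0.13. The list's mean level was 6.34, 5.21, 4.68 and 4.35 in the EtOH libraries and 3.69, 3.87 and 6.07 in the CCl4+EtOH libraries, so that CCl4+EtOH replicate 3 and EtOH replicate 1 were high. Of 13 hepatocyte markers 1 fell and none rose, and none passed without CCl4+EtOH replicate 3. Whether the adrenal, fat or neutrophil transcripts bear on the changes of other genes was not tested beyond the settings given above.

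**Figure D5:**
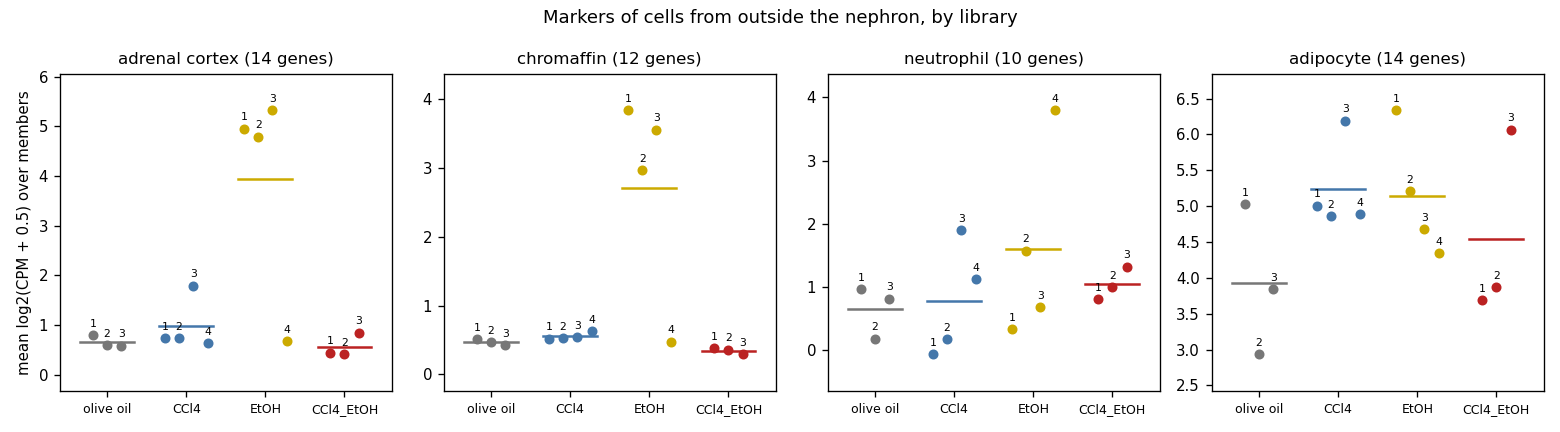
Mean log2(CPM + 0.5) over the tested markers of adrenal cortex, chromaffin cells, neutrophils and adipocytes in each library, by group, with replicate numbers and the group mean as a line. EtOH replicates 1 to 3 are high for both adrenal lists, EtOH replicate 4 for neutrophils, and CCl4+EtOH replicate 3 and EtOH replicate 1 for adipocytes.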

How the data were processed

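RNA of flash-frozen mouse kidney was sequenced. The deposited table holds raw read counts per gene symbol for 14 of the 15 samples. Reads were aligned with GSNAP to mm9, per the submitters' processing notes; these sources name no counting tool, strand setting or annotation. The 27 rows with a calendar date for a symbol (0.168 to 0.209% of counts) were dropped. Libraries held 16356512 to 23545275 counts, and counts of each replicate pair within the EtOH and CCl4+EtOH groups differed by more than sampling noise.

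All 14 libraries were fitted together in 4 groups with edgeR 4.0.16 (R 4.3.3): TMM scaling, its default filter on low counts (16105 genes kept), robust quasi-likelihood tests and Benjamini-Hochberg adjustment over all genes. The SE comes from the log2 change and its F statistic, as their size over √F. Bounds use 3 counts over a group as the floor, and counting intervals are 95% and cover counting error only. In simulated counts for this comparison over 16105 genes, the test called 92.3% of genes raised by 2 and 64.3% raised by 1 on the log2 scale, and 88.1% and 74.5% of those lowered as much. Only 42 to 59 genes were changed by each amount, whereas 34.2% of genes were called in the data. The simulated libraries of a group shared 1 mean, unlike CCl4+EtOH replicate 3 and its group, so these rates need not hold for the data.

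Named genes were the 15 largest called, non-overlapping changes each way with a mean of at least 1 CPM (leaving out adrenal, chromaffin, adipocyte and set-apart genes and predicted genes), up to 4 with the smallest p each way in each list, members described by role and 24 genes always given. Comparison, lists and named genes were chosen with earlier results of these data known. Alternatives used DESeq2 1.42.0, limma 3.58.1 (voom with quality weights), other scalings, filters and sample sets. Promoter sequences are RefSeq's, build GRCm38.p6, matched by symbol.
Some genes are not reported here.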

Additional observations from a re-analysis of the deposited data

Results flagged for a closer look

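In the EtOH group, 1 library stood apart from the other 3 in 5 of 81 groups of values examined, by a gap to its nearest neighbour, as a share of the group's range, above Dixon's 95% critical value. Chance flags about 1 in 20 groups. The mean adrenal cortex marker level (log2 of CPM + 0.5) had a gap of 0.885, with EtOH replicate 4 at 0.67 and replicates 1 to 3 at 4.95, 4.79 and 5.32. Cyp2e1 had a gap of 0.834, with EtOH replicate 4 at 1621 CPM and replicates 1 to 3 at 1165, 1240 and 1176. For the markers of intercalated cells the gap was 0.831, with replicate 4 high, at 6.34 against values of 6.28 to 6.29. For B and plasma cell markers it was 0.863, with replicate 2 high (2.42), and for claudins and junction genes 0.874, with replicate 1 high (5.01).

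The CCl4 difference with ethanol differed from that without ethanol for 1468 genes in edgeR's interaction test. Among the injury genes, the interaction (log2) was 7.815 for Havcr1, 5.495 for Krt20, 4.304 for Spp1, 4.059 for Sox9, 3.992 for Vcam1 and 3.866 for Lcn2. It was 1.36 for Tgfb1, 0.9658 for Tlr4 and 0.8589 for Nfkb1. Negative values were found for Kap (-1.578) and Cyp2e1 (-1.606). The values for Star (-5.423) and Cyp21a1 (-13.94) are those of adrenal transcripts, high in EtOH replicates 1 to 3. Cyp21a1 was also at 3.90 CPM in CCl4 replicate 3, against at most 0.133 in the other CCl4 and the olive oil libraries, which gave a difference of 3.39 without ethanol.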

How the results depend on the processing

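No paired analysis was possible because the replicate numbers only name samples in order. The main count of 5514 genes called lay between 5193 and 6995 under other scalings, filters and tests. It was 3390 with only the libraries of the 2 groups, 3195 to 7417 with 1 library left out (the lowest without CCl4+EtOH replicate 2, 3258 without replicate 1 and the highest without replicate 3), 856 with the adrenal marker level added as a term and 335 against EtOH replicate 4 alone. Under upper-quartile scaling, 60.9% of called genes were higher, against 52.8%. The interaction count of 1468 was 2519 with DESeq2, 4810 with limma-voom, 4881 without CCl4+EtOH replicate 3 and 3 with the adrenal covariate. In the covariate fit the lost calls include kidney genes, and the cause was not tested. The added term was 4.57, 4.42 and 4.91 in EtOH replicates 1 to 3 and 0.326 to 1.61 in all other libraries, so it mainly sets those EtOH libraries apart. Median changes in that fit were 1.79 for the injured tubule, 2.33 for replication and mitosis and -0.71 for fatty acid oxidation. The main fit gave 1.72, 2.14 and -0.79.

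Among the named genes, direction turned for genes near 0 or of the adrenal cortex. Of the 5514 genes called in the main fit, the estimate of 26 turned with the covariate. Against EtOH replicate 4 alone it turned for 21. Angptl4 changed by 0.0713 with limma-voom and by -0.416 to 0.0579 with 1 library left out, the ends being without CCl4+EtOH replicate 1 and without replicate 3, with 0.0235 without EtOH replicate 1. Hmox1 changed by -0.142 (without EtOH replicate 1) to 0.272 (without CCl4+EtOH replicate 3), with -0.0759 without CCl4+EtOH replicate 2, -0.128 with the covariate and -0.132 against EtOH replicate 4 alone. With the covariate and against EtOH replicate 4 alone, Cyp11a1 changed by 0.406 and 2.91, and Cyp21a1 by 2.31 and 4.02. Both genes belong to the list whose mean is the covariate, so that fit takes up their own change. EtOH replicate 4 had 0 CPM for both, and the CCl4+EtOH group had 3 counts of Cyp11a1 and 7 of Cyp21a1. The values against EtOH replicate 4 alone thus lie at the floor and show no rise. With 3 and 4 libraries a group, changes of 1 on the log2 scale were recovered less often than changes of 2 in simulated counts.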
